A study of Mus musculus with 36 samples.

Results

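The genes described here are 34 genes of glycolysis and of the response to low oxygen in mouse embryonic stem cells. The list of names was drawn up with earlier results of these data known, so counts over it are a description and not an unbiased sample. The members are the rows of a deposited count table whose gene name was one of the 34, out of 55335 genes. All 34 names were found. Aldoa stood on 2 gene IDs, of which the second held 97 counts over all libraries and did not pass the filter on low counts, so 34 member genes were tested among 17394.

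The libraries were made from polyadenylated RNA of mouse embryonic stem cells in 36 samples, 3 for each of 12 groups. The groups were BPK25, a compound given by its code name, at days 0, 2, 4 and 6, IAA at the same days, and DMSO at the same days. IAA is auxin, used to deplete proteins that have been fused to an auxin-inducible degron, and DMSO is the usual solvent control. The series concerns the NuRD complex and CTCF sites, and all groups shared a serum replacement medium with LIF, usually over irradiated mouse fibroblast feeders. The tagged protein, the doses, the number of clones and the event that day 0 counts from are not stated in the labels, and nothing says that the 3 libraries of a group came from separate cultures. The p-values therefore speak of library-to-library spread, part or all of which may be technical. Libraries held 6621288 to 16497799 counts, and their levels are given as CPM, read counts scaled to 1 common library total after TMM adjustment.

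Glycolysis turns glucose into pyruvate through a chain of cytosolic enzymes, and lactate dehydrogenase can turn pyruvate on into lactate. Hypoxia-inducible factor is held down in oxygen by prolyl hydroxylases of the EGLN family, which mark its alpha subunit for destruction. When oxygen falls the factor binds DNA at a short core motif and raises many glycolytic enzymes, the kinases that keep pyruvate out of mitochondria, and genes of mitophagy and collagen modification. Mouse embryonic stem cells use much glycolysis, and the balance between glycolysis and respiration is known to shift as they leave the naive state. The data here are RNA levels only, with no measure of glucose use, lactate, protein or oxygen.

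The stem cell label was checked against 8 pluripotency genes, which all had counts in every group. Their summed level ran from 4143 to 4186 CPM in IAA at day 0, against 2904 to 3010 CPM in DMSO at day 0. At day 2 it was 1518 to 1542 CPM in IAA against 2756 to 2803 CPM in DMSO, at day 4 837 to 842 CPM against 1187 to 1289 CPM, and at day 6 679 to 705 CPM against 751 to 760 CPM. The pluripotency sum was thus higher in IAA than in DMSO at day 0 and lower at days 2, 4 and 6, with no overlap between libraries. At days 0, 2, 4 and 6 the test called 7, 0, 1 and 2 of the 8 genes higher in IAA and 0, 8, 6 and 5 lower. The sum also fell over the days in DMSO itself. Against DMSO day 0, all 8 genes were called lower in DMSO at day 4 and again at day 6. The label of stem cells thus describes the later days less well than day 0. Tdgf1 went against most of the list at day 6, with a mean of 45.7 ± 3.19 CPM in IAA and 9.76 ± 0.985 CPM in DMSO (SD, n = 3 each). Nanog, Sox2 and Esrrb averaged 5.98, 53.0 and 17.2 CPM in IAA that day against 19.5, 83.4 and 28.8 CPM in DMSO. A list of 10 fibroblast feeder genes summed to 45.0 to 48.3 CPM in IAA and 40.9 to 45.5 CPM in DMSO at day 0, and to 312 to 321 CPM in IAA and 157 to 161 CPM in DMSO at day 6. Most of the day 6 sum was Col3a1, Fbn1, Col1a2 and Col1a1, at 103, 92.1, 55.2 and 46.4 CPM in IAA. The list did not move as 1 block, with 6 of 9 tested genes called higher in IAA at day 6 and 2 lower. Thy1 and Dcn averaged 0.239 and 0.662 CPM in IAA against 0.833 and 1.32 CPM in DMSO that day. At day 0 Fbn1 was the largest part of the sum, at 23.4 CPM in IAA and 25.9 CPM in DMSO. Col3a1 averaged 0.647 CPM in IAA against 1.80 CPM in DMSO at day 0, and Thy1 6.25 CPM against 0.608 CPM. Of the 9 tested feeder genes, 2 were called higher and 4 lower in IAA at day 2. In BPK25 at day 4, 1 was called higher and 4 lower. Dcn and Lum had no counts in either of these 2 groups, and averaged 0.642 CPM or below in DMSO of those days. At day 4 a sum over 5 trophectoderm genes was 107 to 117 CPM in BPK25 and 162 to 165 CPM in IAA, against 37.9 to 40.5 CPM in DMSO, and mitochondrially encoded genes took 1.96 ± 0.102%, 2.49 ± 0.0245% and 1.40 ± 0.0492% of counts in BPK25, IAA and DMSO (SD, n = 3 each). Most of that trophectoderm sum was the keratin gene Krt18, with 89.3 ± 5.34 CPM in BPK25 and 142 ± 1.99 CPM in IAA against 24.7 ± 0.741 CPM in DMSO, while the defining genes Cdx2 and Elf5 averaged 0.468 CPM or below in each of these 3 groups. BPK25 at day 4 stood apart from the other BPK25 days, with 53% of all genes called against DMSO, where days 0, 2 and 6 had 7.9%, 13.5% and 7.09%. Its pluripotency sum at day 4 was 1054 to 1078 CPM against 1187 to 1289 CPM in DMSO, with 1 of 8 genes called higher and 5 lower. Of 7 endoderm genes, 3 were called higher in BPK25 at day 4 and 4 lower. Afp averaged 24.7 CPM against 0.901 CPM in DMSO, and Gata4 10.4 CPM against 29.7 CPM. These lineage, feeder and mitochondrial levels moved with the treatments and days described here, and their part in the results was not tested.

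In DMSO at day 0 the members spanned a wide range of levels per kilobase of exon. Pkm, the pyruvate kinase that makes pyruvate, stood at 196 ± 7.05 CPM per kb, Gapdh at 172 ± 5.39, Aldoa at 129 ± 3.48 and Pgk1 at 112 ± 3.79 (SD, n = 3 each). These 4 led, with gaps wider than the SDs. Pkm, Gapdh and Pgk1 belong to lower glycolysis, and Aldoa, an aldolase, to upper glycolysis. Among the hypoxia members Hif1a, which encodes the oxygen-regulated alpha subunit, was highest at 34.8 ± 1.19 CPM per kb. Pfkfb3, Pfkfb4 and Ankrd37 were lowest, at 0.732 ± 0.0963, 0.687 ± 0.195 and 0.590 ± 0.351 CPM per kb, values that do not separate beyond their SDs. The lowest Ankrd37 library of DMSO at day 0 held 2 counts.

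The comparison of IAA with DMSO asked what the auxin treatment did to these genes on each day. Most members were higher in IAA throughout. A gene was called when its adjusted p was under 0.05 in edgeR's quasi-likelihood test, adjusted by Benjamini-Hochberg over all 17394 genes. At days 0, 2, 4 and 6 the test called 28, 25, 24 and 25 of 34 members higher in IAA, where 21.3%, 27.5%, 25.9% and 30.6% of all tested genes were higher. It called 4, 5, 4 and 4 members lower, where 23.2%, 27.9%, 25.9% and 30% of all genes were lower. The median log2 fold change of the members was 0.86, 0.49, 0.62 and 0.69 over the 4 days, and that of all genes was -0.031, -0.0068, -0.0036 and 0.0014. At least 2-fold higher were 15, 6, 9 and 7 members, against 4.52%, 6.53%, 6.31% and 8.54% of all genes. In bulk RNA, a change in how many cells of a type are present and a change in RNA per cell cannot be told apart.

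**Figure D1:**
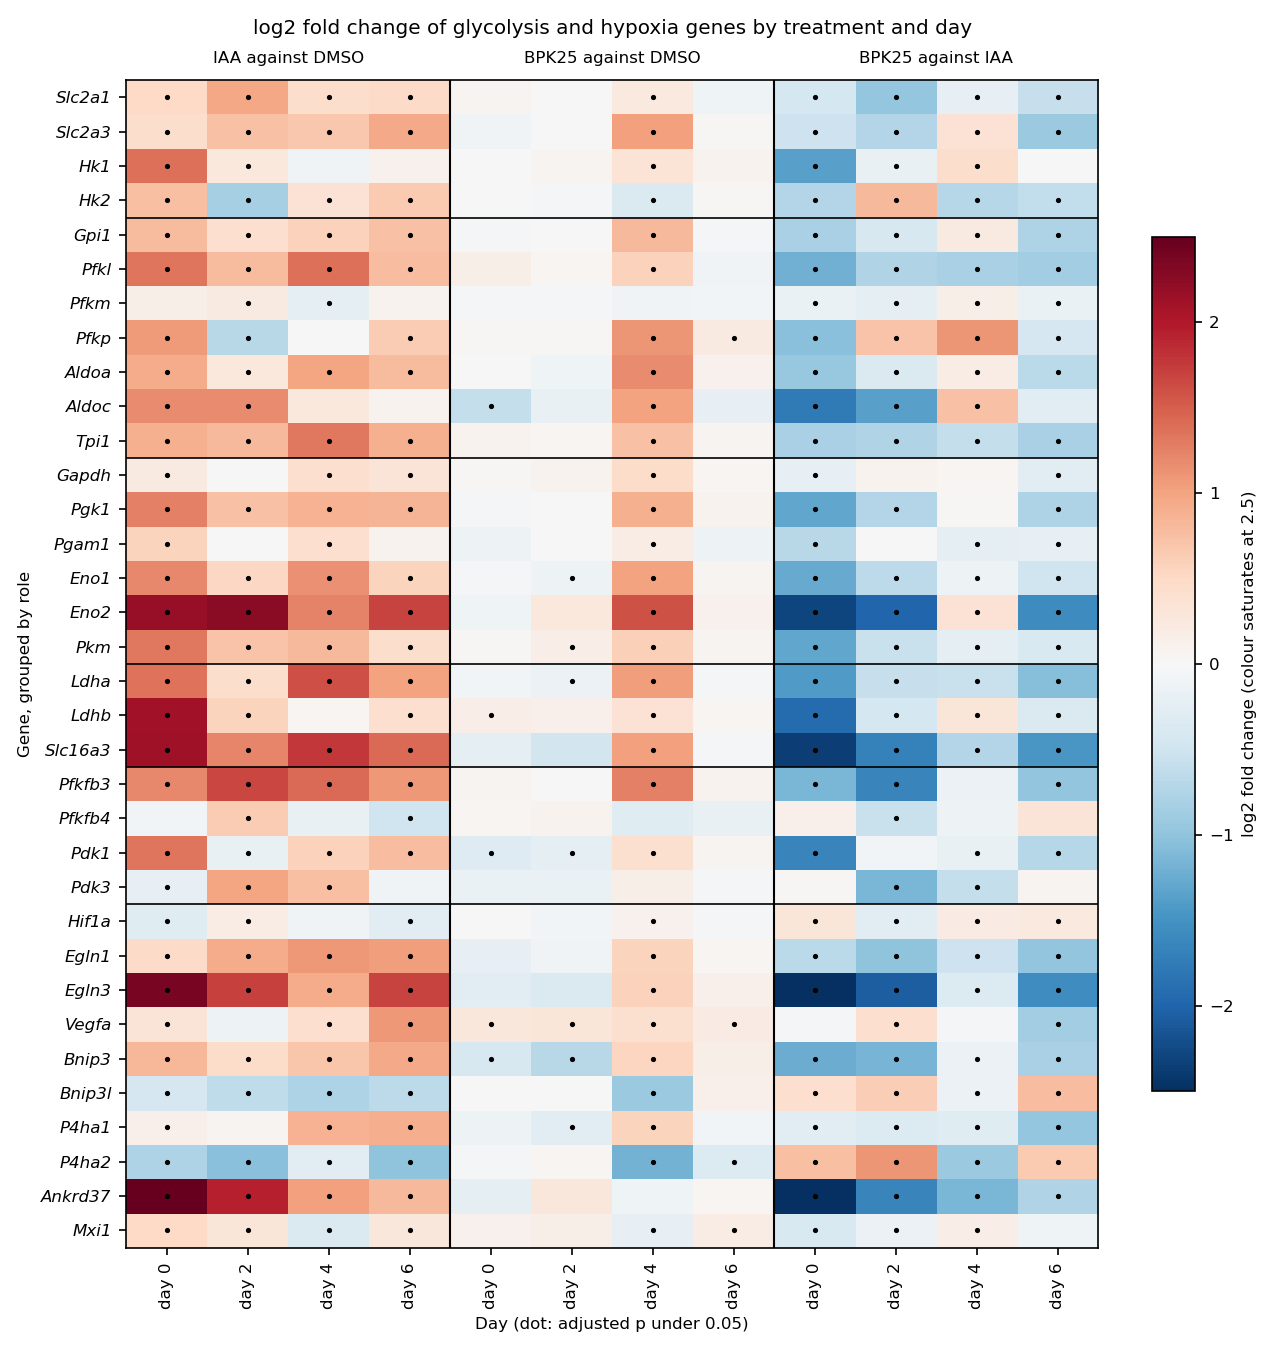
Log2 fold change of each of the 34 members, in rows by role, for IAA against DMSO, BPK25 against DMSO and BPK25 against IAA at days 0, 2, 4 and 6, in columns, on a colour scale that saturates at 2.5. A dot marks a call at an adjusted p under 0.05, and the IAA columns are mostly higher while BPK25 against DMSO has 30 dots at day 4 and 5, 7 and 4 at days 0, 2 and 6.

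Over all 4 days, 17 members were called higher in IAA every time, where 5.17% of all tested genes were. They were the glucose transporters Slc2a1 and Slc2a3, the glycolytic enzymes Gpi1, Pfkl, Aldoa, Tpi1, Pgk1, Eno1, Eno2 and Pkm, the lactate genes Ldha and Slc16a3, the regulator Pfkfb3, and Egln1, Egln3, Bnip3 and Ankrd37 of the hypoxia group. Bnip3l and P4ha2 were called lower on all 4 days, where 5.68% of all genes were. Another 8 members, Hk2, Pfkm, Pfkp, Pfkfb4, Pdk1, Pdk3, Hif1a and Mxi1, were called higher on at least 1 day and lower on another, against 21.9% of all genes. The other 7, Hk1, Aldoc, Gapdh, Pgam1, Ldhb, Vegfa and P4ha1, were called higher on 2 or 3 days and lower on none.

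Glucose enters the cell through transporters and is trapped by hexokinases. Slc2a1, the broadly expressed transporter GLUT1, had 144, 152 and 153 CPM in IAA at day 0 against 106, 105 and 105 CPM in DMSO, and 205, 211 and 209 CPM in IAA at day 2 against 101, 105 and 113 CPM in DMSO. All 6 IAA libraries lay above all 6 DMSO libraries, with log2 fold changes of 0.51 ± 0.05 at day 0 and 0.96 ± 0.04 at day 2 (approximate SE throughout). Slc2a3, the high-affinity transporter GLUT3, rose by 0.45 ± 0.04, 0.74 ± 0.04, 0.66 ± 0.04 and 0.95 ± 0.04 at days 0, 2, 4 and 6. Hk2, the inducible hexokinase, had 245, 242 and 256 CPM in IAA at day 0 against 145, 149 and 149 CPM in DMSO. At day 2 it had 69.0, 72.4 and 70.1 CPM in IAA against 122, 127 and 130 CPM in DMSO. Hk2 was thus above DMSO in every IAA library at day 0 and below it in every one at day 2, a log2 fold change of 0.74 ± 0.04 and then -0.84 ± 0.05 (edgeR's quasi-likelihood test, adjusted p = 9.6e-21 and 1.9e-21), and it was again higher by 0.36 ± 0.05 and 0.65 ± 0.04 at days 4 and 6. Hk1, the constitutive hexokinase, rose by 1.37 ± 0.06 at day 0 and 0.27 ± 0.06 at day 2, and its differences of -0.09 ± 0.06 at day 4 and 0.11 ± 0.06 at day 6 were not called.

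In upper glycolysis the phosphofructokinase subunits, which carry out the committed step, differed among themselves. Pfkl, the liver-type subunit, had 188, 191 and 186 CPM in IAA at day 0 against 70.0, 79.4 and 72.9 CPM in DMSO, and 280, 267 and 268 CPM at day 4 against 104, 103 and 105 CPM in DMSO. Its libraries did not overlap on either day, and the log2 fold changes were 1.35 ± 0.05 and 1.38 ± 0.05. Pfkp, the platelet-type subunit, had 297, 312 and 289 CPM in IAA at day 0 against 150, 143 and 135 CPM in DMSO, but 88.2, 83.7 and 82.5 CPM in IAA at day 2 against 133, 139 and 139 CPM in DMSO. Every IAA library of Pfkp lay above DMSO at day 0 (1.07 ± 0.04) and below it at day 2 (-0.69 ± 0.05). Pfkm, the muscle-type subunit, was called higher at day 2 (0.22 ± 0.06) and lower at day 4 (-0.22 ± 0.06). Aldoa, the main aldolase, rose by 0.92 ± 0.04 at day 0 and 0.98 ± 0.04 at day 4, and Tpi1, triosephosphate isomerase, by 1.33 ± 0.05 at day 4. Aldoc, the brain-type aldolase, rose by 1.18 ± 0.13 at both days 0 and 2.

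The enzymes of lower glycolysis, which yield ATP and pyruvate, were called higher in IAA for 6 of 6 genes at days 0 and 4, 4 of 6 at day 2 and 5 of 6 at day 6, and for none lower. Pgk1, phosphoglycerate kinase, had 569, 582 and 647 CPM in IAA at day 0 against 254, 257 and 241 CPM in DMSO. Every IAA library was above every DMSO library, with a log2 fold change of 1.25 ± 0.05, and the later days gave 0.73 ± 0.05, 0.86 ± 0.05 and 0.84 ± 0.05. Eno2, the neuron-type enolase, was low in DMSO at day 0, with 18.0, 19.2 and 20.7 CPM in IAA against 4.64, 3.68 and 4.35 CPM in DMSO. That was 4.55-fold higher (2.18 ± 0.16), and at day 2 the log2 fold change was 2.25 ± 0.16. Eno1, the ubiquitous enolase, rose by 1.21 ± 0.04 at day 0 and 1.14 ± 0.04 at day 4. Pkm averaged 2452 ± 28.9 CPM in IAA and 981 ± 35.3 CPM in DMSO at day 0 (SD, n = 3 each), a log2 fold change of 1.32 ± 0.04 that was 0.44 ± 0.04 at day 6. Gapdh, often used to scale other genes, was higher by 0.23 ± 0.05, 0.42 ± 0.05 and 0.32 ± 0.05 at days 0, 4 and 6, with -0.0053 ± 0.05 and no call at day 2.

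All 3 lactate genes rose more than 2-fold in IAA at day 0. Ldha, which favours lactate formation, had 460, 461 and 463 CPM in IAA at day 0 against 174, 179 and 190 CPM in DMSO. At day 4 it had 457, 452 and 448 CPM in IAA against 151, 144 and 150 CPM in DMSO. The IAA libraries lay far above the DMSO libraries on both days, 2.55-fold and 3.06-fold (1.35 ± 0.04 and 1.61 ± 0.04 on the log2 scale, edgeR's quasi-likelihood test, adjusted p = 2.1e-31 and 2.2e-35). Slc16a3, the lactate exporter MCT4, had 19.9, 26.0 and 23.6 CPM in IAA at day 0 against 4.77, 6.43 and 4.66 CPM in DMSO. It was 4.33-fold higher with no overlap (2.11 ± 0.14), and higher by 1.23 ± 0.14, 1.76 ± 0.11 and 1.41 ± 0.09 later. Ldhb, the heart-type subunit that favours pyruvate formation, had 195, 200 and 205 CPM in IAA at day 0 against 45.0, 44.8 and 50.4 CPM in DMSO (4.28-fold), but 66.2, 60.5 and 62.2 CPM at day 4 against 60.0, 62.6 and 60.1 CPM in DMSO. At day 4 its libraries overlapped and the difference of 0.05 ± 0.05 was not called.

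Of the regulators, Pfkfb3, whose product raises the activator of phosphofructokinase, had 16.9, 13.9 and 12.7 CPM in IAA at day 2 against 3.30, 4.42 and 5.39 CPM in DMSO. The groups did not overlap, and its log2 fold changes over the 4 days were 1.21 ± 0.17, 1.67 ± 0.17, 1.41 ± 0.15 and 1.08 ± 0.12. Pfkfb3 was also the one member whose IAA effect was not called as differing between days (joint test in edgeR, adjusted p = 0.0665), while 33 of 34 were called, against 70.1% of all tested genes. Pdk1, a kinase that shuts pyruvate dehydrogenase, had 136, 134 and 133 CPM in IAA at day 0 against 49.2, 52.6 and 57.9 CPM in DMSO. It was above DMSO in every IAA library at day 0 (1.34 ± 0.06) and lower by a called -0.18 ± 0.07 at day 2, a call lost under DESeq2 and without any 1 of 4 of the 6 libraries, DMSO day 2 replicates 1 and 3 and IAA day 2 replicates 1 and 2 (edgeR's quasi-likelihood test, adjusted p up to 0.112). At days 4 and 6 it rose by 0.57 ± 0.08 and 0.77 ± 0.08. Pdk3, another of these kinases, rose by 0.99 ± 0.07 at day 2 and 0.74 ± 0.06 at day 4. Its day 0 value of -0.20 ± 0.08 was called although the libraries overlapped, and the call was lost under every single-library omission but that of DMSO day 0 replicate 1, with a weakest value of -0.14 and adjusted p = 0.219 without DMSO day 0 replicate 3. Pfkfb4, at 3.18 to 5.31 CPM on average in IAA, was higher at day 2 (0.64 ± 0.20) and lower at day 6 (-0.50 ± 0.18). Its call at day 2 was lost without DMSO replicate 3 (0.45, adjusted p = 0.0852) or IAA replicate 3 (0.50, adjusted p = 0.0529), and its call at day 6 without DMSO replicate 1 (-0.46, adjusted p = 0.0597) or IAA replicate 2 (-0.41, adjusted p = 0.0787).

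**Figure D2:**
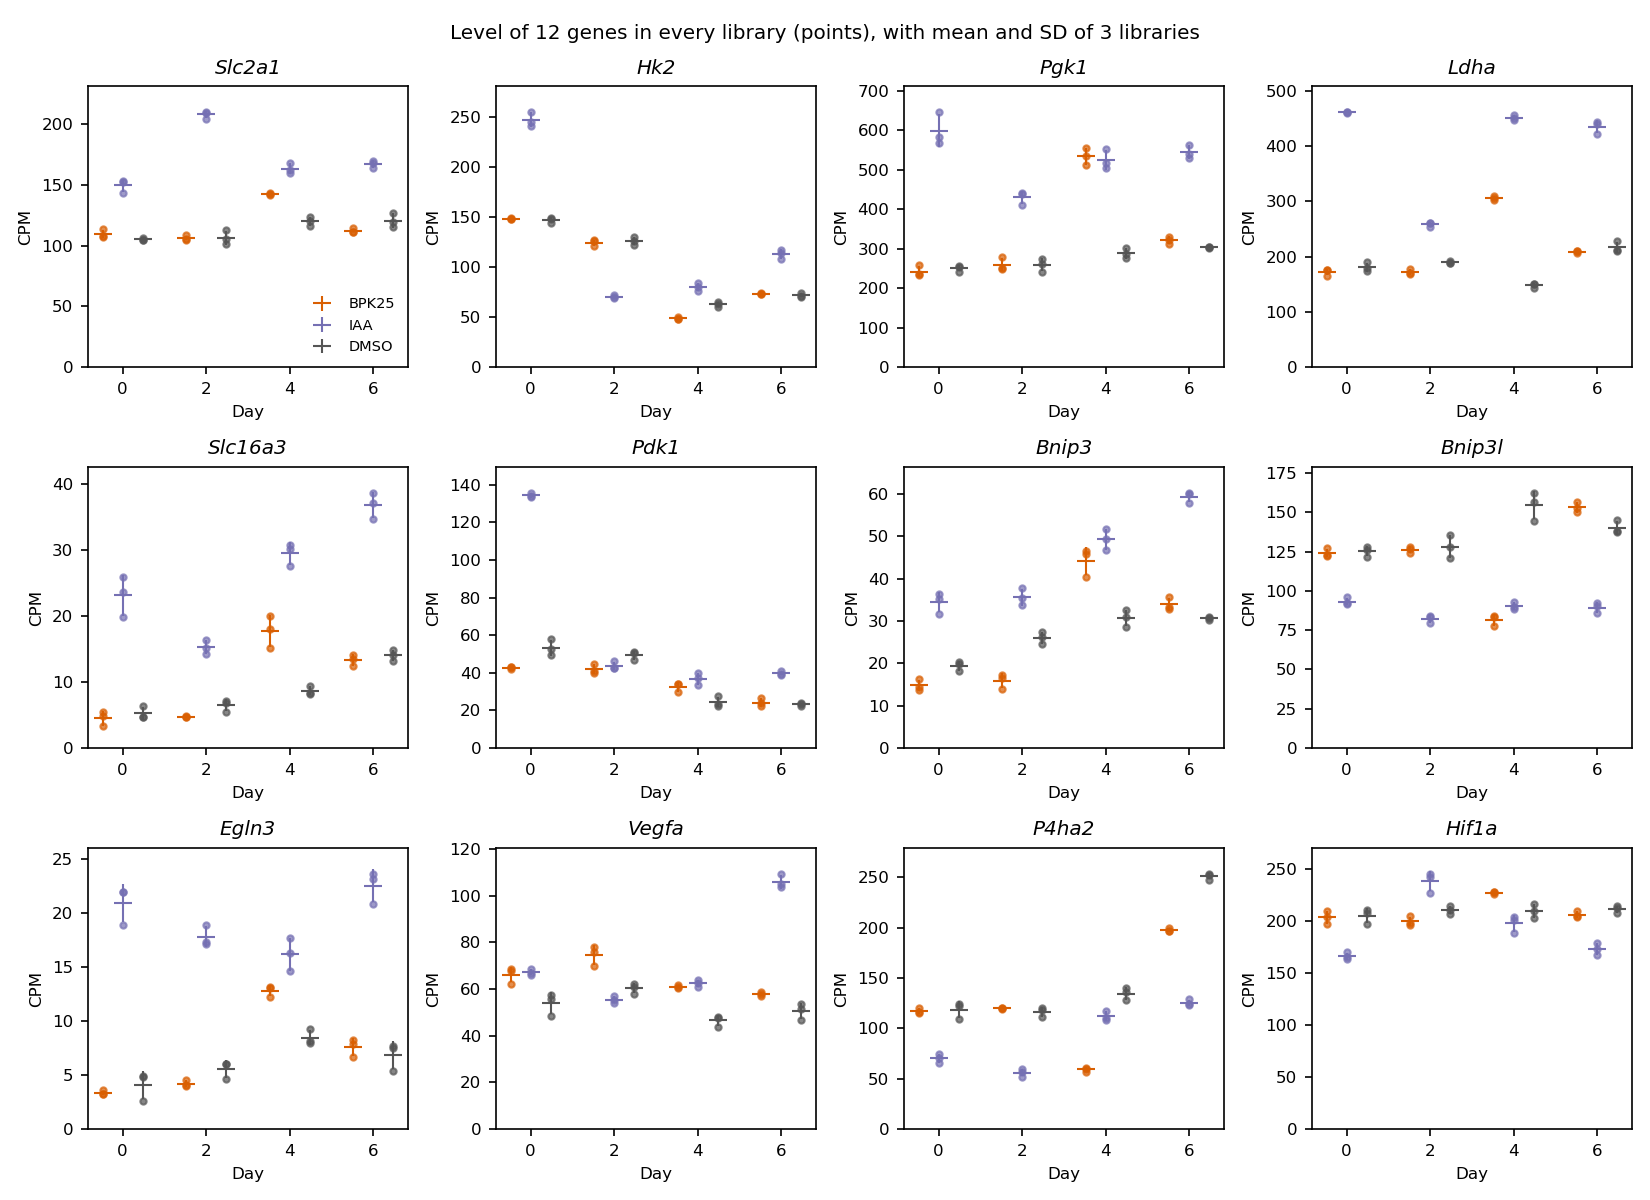
Level in CPM of 12 members in each library at days 0, 2, 4 and 6, with BPK25, IAA and DMSO side by side, points for libraries, short horizontal marks for group means and vertical bars for their SD (n = 3). Ldha, Slc16a3 and Egln3 are higher in IAA than in DMSO on each day, Hk2 crosses DMSO at day 2, and Bnip3l and P4ha2 are lower in IAA on each day.

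Within the hypoxia group the members did not move as 1 block. Egln3, a prolyl hydroxylase that is itself a known target of the factor, had 21.9, 21.9 and 18.9 CPM in IAA at day 0 against 4.91, 2.63 and 4.81 CPM in DMSO. It was 5.16-fold higher with no overlap (2.37 ± 0.15), and higher by 1.70 ± 0.13, 0.93 ± 0.12 and 1.68 ± 0.11 later. Ankrd37, another known target, had 7.64, 7.80 and 7.27 CPM in IAA at day 0 against 1.36, 1.05 and 0.310 CPM in DMSO. Its groups did not overlap and its log2 fold change was 3.01 ± 0.27 at day 0, the highest of the 34 members that day, and 1.94 ± 0.30, 1.03 ± 0.23 and 0.82 ± 0.22 at the later days. Egln1, the main oxygen-sensing hydroxylase, rose by 0.47 ± 0.07, 0.92 ± 0.07, 1.07 ± 0.06 and 1.04 ± 0.06.

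Bnip3 and Bnip3l encode related mitophagy receptors of the outer mitochondrial membrane, and they went opposite ways. Bnip3 had 36.5, 35.3 and 31.7 CPM in IAA at day 0 against 19.8, 20.3 and 18.2 CPM in DMSO, and 59.9, 60.3 and 57.9 CPM at day 6 against 30.3, 31.0 and 30.7 CPM in DMSO. Every IAA library was higher on both days (0.83 ± 0.09 and 0.96 ± 0.06). Bnip3l had 95.8, 91.5 and 92.2 CPM in IAA at day 0 against 122, 128 and 126 CPM in DMSO, and 89.9, 88.4 and 92.9 CPM at day 4 against 157, 163 and 145 CPM in DMSO. Every IAA library was lower. Bnip3l fell by 0.43 ± 0.05 at day 0 and fell by 0.78 ± 0.05 at day 4 on the log2 scale, and it also fell by 0.63 ± 0.05 at day 2 and 0.65 ± 0.05 at day 6.

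P4ha1 and P4ha2, catalytic subunits of the collagen prolyl hydroxylase, also parted. P4ha2 had 65.5, 71.0 and 74.2 CPM in IAA at day 0 against 123, 125 and 109 CPM in DMSO, and 123, 129 and 124 CPM at day 6 against 252, 248 and 254 CPM in DMSO. The IAA libraries were all lower. The log2 fold change was -0.77 ± 0.05 at day 0, the fall at day 6 was 2.01-fold, and the values at days 2 and 4 were -1.05 ± 0.05 and -0.27 ± 0.05. P4ha1 rose by 0.86 ± 0.04 at day 4 and 0.90 ± 0.04 at day 6. Its call of 0.12 ± 0.05 at day 0 was lost without DMSO replicate 2 (0.092, adjusted p = 0.150), IAA replicate 2 (0.12, adjusted p = 0.0653) or IAA replicate 3 (0.10, adjusted p = 0.0930).

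Hif1a itself moved little. It had 165, 170 and 163 CPM in IAA at day 0 against 197, 211 and 208 CPM in DMSO, and 227, 242 and 246 CPM at day 2 against 210, 207 and 214 CPM in DMSO. The IAA libraries were all below DMSO at day 0 (-0.30 ± 0.04) and all above it at day 2 (0.18 ± 0.04), with -0.08 ± 0.04 and no call at day 4 and a fall of 0.29 ± 0.04 at day 6. Vegfa, the angiogenic growth factor, had 104, 109 and 105 CPM in IAA at day 6 against 46.7, 51.6 and 53.4 CPM in DMSO. It rose there by 1.08 ± 0.05, by 0.32 ± 0.06 at day 0 and by 0.43 ± 0.06 at day 4, with -0.12 ± 0.06 and no call at day 2. Mxi1, a MAX partner that opposes MYC, was higher at days 0, 2 and 6 (0.51 ± 0.06, 0.31 ± 0.06 and 0.29 ± 0.05) and lower at day 4 (-0.37 ± 0.05).

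The core motif that hypoxia-inducible factor binds is ACGTG or GCGTG, and 250 bases before the RefSeq start sites of build GRCm38.p6 were searched for both on both strands, so CACGT and CACGC also count and CACGTG counts once per strand. The table held 48 promoters of 32 members. Of these 48, 79.2% had at least 1 match, against 53.9% of 15079 promoters of tested genes and 38.6% of all 32851 promoters in the table. ACGTG was in 50% of member promoters and 20.8% of those of tested genes, and GCGTG in 52.1% and 42.9%. Counted by gene, with a match in any of its promoters, the share was 90.6% of the 32 members and 59.7% of 11825 tested genes. By gene, the 16 called higher in IAA on all 4 days that had a promoter had a match in 13, and the other 16 members in 16. A match is a run of letters in this window and not a shown binding site. The following sequences are shown because they belong to members that carry the main differences, with Ldha, Pgk1, Bnip3, Ankrd37 and Slc16a3 higher in IAA on every day and P4ha2 lower. They are read 5′ to 3′ on the gene's strand, at chr7:46845554-46845803 (plus), chrX:106186850-106187099 (plus), chr7:138909507-138909756 (minus), chr8:45999851-46000100 (minus), chr11:120948817-120949066 (plus) and chr11:54100674-54100923 (plus) in the order printed, with matches in capitals.
Ldha: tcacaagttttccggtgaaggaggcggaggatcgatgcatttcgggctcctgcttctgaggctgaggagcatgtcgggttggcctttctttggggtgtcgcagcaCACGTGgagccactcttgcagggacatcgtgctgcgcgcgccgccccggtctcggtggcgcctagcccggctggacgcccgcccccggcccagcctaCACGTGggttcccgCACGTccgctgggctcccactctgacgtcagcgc
Pgk1: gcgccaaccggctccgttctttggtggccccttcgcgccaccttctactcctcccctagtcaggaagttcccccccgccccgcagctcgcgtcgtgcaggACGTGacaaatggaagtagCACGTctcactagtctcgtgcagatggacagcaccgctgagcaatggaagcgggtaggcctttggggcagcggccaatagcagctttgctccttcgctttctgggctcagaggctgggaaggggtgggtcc
Bnip3: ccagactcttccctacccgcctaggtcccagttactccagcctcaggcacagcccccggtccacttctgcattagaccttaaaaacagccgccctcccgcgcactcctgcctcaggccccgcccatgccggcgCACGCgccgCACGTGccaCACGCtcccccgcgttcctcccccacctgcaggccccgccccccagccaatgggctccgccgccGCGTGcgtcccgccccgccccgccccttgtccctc
Ankrd37: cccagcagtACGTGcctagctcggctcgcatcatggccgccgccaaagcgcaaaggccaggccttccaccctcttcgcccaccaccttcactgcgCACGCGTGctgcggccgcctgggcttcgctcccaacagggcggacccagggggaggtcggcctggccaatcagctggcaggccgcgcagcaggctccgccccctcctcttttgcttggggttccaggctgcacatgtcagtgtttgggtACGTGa
Slc16a3: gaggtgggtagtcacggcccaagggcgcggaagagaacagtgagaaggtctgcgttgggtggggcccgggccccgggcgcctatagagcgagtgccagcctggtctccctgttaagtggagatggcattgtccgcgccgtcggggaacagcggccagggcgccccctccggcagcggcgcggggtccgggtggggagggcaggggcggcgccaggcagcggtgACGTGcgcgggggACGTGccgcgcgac
P4ha2: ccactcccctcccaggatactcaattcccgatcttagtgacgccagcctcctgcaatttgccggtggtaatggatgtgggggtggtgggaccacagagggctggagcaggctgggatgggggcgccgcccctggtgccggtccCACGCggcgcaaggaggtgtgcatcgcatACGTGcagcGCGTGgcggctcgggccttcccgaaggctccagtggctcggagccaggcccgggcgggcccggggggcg

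The number of matches was 5 for Ldha, 2 for Pgk1, 5 for Bnip3, 4 for Ankrd37, 2 for Slc16a3 and 3 for P4ha2. These counts are for the windows printed. Ldha had another promoter among those searched, which is not printed and had fewer matches. For Ldha alone among the genes printed, the bases just downstream of the window were not found in a GENCODE transcript. Whether the number of matches goes with the direction of change was not tested.

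The comparison of BPK25 with DMSO gave few member differences except at day 4. At days 0, 2, 4 and 6, 2, 2, 26 and 3 of 34 members were called higher, where 3.32%, 6.4%, 26.2% and 4.01% of all tested genes were, and 3, 5, 4 and 1 were called lower, where 4.58%, 7.12%, 26.8% and 3.08% were. The BPK25 effect was called as differing between days for 30 of 34 members in the joint test (edgeR, 3 differences tested together), against 47.1% of all genes, the exceptions being Pfkm, Pfkfb4, Vegfa and Ankrd37. Aldoc, Eno1, Ldha, Pdk1, Bnip3, P4ha1 and Mxi1, 7 members, were called higher on at least 1 day and lower on another, against 7.37% of all genes. The BPK25 and IAA comparisons of a day share their 3 DMSO libraries.

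At day 4 the higher members in BPK25 came from every role. Of the 17 genes of uptake, upper and lower glycolysis, 15 were called higher, as were 3 of 3 lactate genes, 2 of 4 regulators and 6 of 10 hypoxia genes, and 8 members rose at least 2-fold, against 6.21% of all genes. Eno2 had 22.3, 26.6 and 25.2 CPM in BPK25 against 9.04, 6.58 and 8.81 CPM in DMSO, 3.03-fold higher. Aldoa had 823, 795 and 803 CPM in BPK25 against 364, 340 and 369 CPM in DMSO, 2.26-fold higher. Every BPK25 library of both genes lay above every DMSO library, with log2 fold changes of 1.60 ± 0.12 and 1.18 ± 0.04 (edgeR's quasi-likelihood test, adjusted p = 3.2e-16 and 4e-28). Pfkfb3 had 13.2, 13.5 and 12.9 CPM in BPK25 against 4.62, 5.34 and 6.90 CPM in DMSO (1.27 ± 0.16). Pfkp had 131, 123 and 134 CPM in BPK25 against 59.9, 60.1 and 60.7 CPM in DMSO (1.11 ± 0.05). Neither overlapped. Ldha, Slc2a3, Slc16a3, Eno1 and Aldoc rose by 1.05 ± 0.04, 1.03 ± 0.04, 1.02 ± 0.12, 1.00 ± 0.04 and 1.00 ± 0.11, and Pgk1 by 0.89 ± 0.05. Slc2a1 rose less, by 0.25 ± 0.04, Egln3 by 0.58 ± 0.12 and Hif1a by 0.11 ± 0.04. The Hif1a call was lost without DMSO day 4 replicate 1 (0.11, adjusted p = 0.0519) or replicate 3 (0.091, adjusted p = 0.0820). Ankrd37, at 1.74, 1.97 and 2.13 CPM in BPK25 against 1.64, 2.57 and 2.06 CPM in DMSO, overlapped and was not called.

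The 4 members lower in BPK25 at day 4 were P4ha2, Bnip3l, Hk2 and Mxi1. P4ha2 had 56.9, 61.2 and 60.1 CPM in BPK25 against 140, 136 and 128 CPM in DMSO, a 2.28-fold fall (-1.19 ± 0.05, edgeR's quasi-likelihood test, adjusted p = 5.5e-25). Bnip3l had 84.0, 83.1 and 77.4 CPM in BPK25 against 157, 163 and 145 CPM in DMSO (-0.93 ± 0.05). Hk2 had 50.6, 47.9 and 48.3 CPM in BPK25 against 64.7, 60.3 and 63.0 CPM in DMSO (-0.35 ± 0.05). In all 3 genes every BPK25 library lay below every DMSO library. Mxi1 fell by 0.20 ± 0.05.

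On the other days the called BPK25 differences were all under 2-fold, and several calls were lost when 1 library was left out. Vegfa had 62.3, 67.7 and 68.4 CPM in BPK25 at day 0 against 48.4, 57.4 and 55.9 CPM in DMSO, 78.0, 69.9 and 75.7 CPM at day 2 against 61.9, 58.0 and 61.0 CPM, 60.5, 61.6 and 60.9 CPM at day 4 against 47.5, 43.9 and 48.2 CPM, and 57.7, 57.0 and 58.6 CPM at day 6 against 46.7, 51.6 and 53.4 CPM. Its groups did not overlap on any day, and it was the one member called higher on all 4 days, as 0.149% of all genes were, with log2 fold changes of 0.29 ± 0.06, 0.30 ± 0.06, 0.39 ± 0.06 and 0.20 ± 0.06. The day 6 call was lost without DMSO replicate 1 (0.14, adjusted p = 0.247), BPK25 replicate 1 (0.20, adjusted p = 0.0601) or BPK25 replicate 3 (0.19, adjusted p = 0.0854). No member was called lower on all 4 days, against 0.0805% of all genes.

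Bnip3 had 13.7, 16.4 and 14.3 CPM in BPK25 at day 0 against 19.8, 20.3 and 18.2 CPM in DMSO, and 16.6, 17.3 and 13.9 CPM at day 2 against 24.5, 27.3 and 26.2 CPM in DMSO. All BPK25 libraries were below DMSO on both days (-0.40 ± 0.10 and -0.70 ± 0.09), whereas at day 4 BPK25 had 45.9, 40.4 and 46.4 CPM against 28.7, 30.9 and 32.6 CPM in DMSO, all higher (0.54 ± 0.07). Without BPK25 replicate 1 the day 0 call was lost (-0.34, edgeR's quasi-likelihood test, adjusted p = 0.0585). Pdk1 was likewise lower at days 0 and 2 (-0.31 ± 0.07 and -0.25 ± 0.07) and higher at day 4 (0.39 ± 0.08), and its day 2 call was lost without BPK25 replicate 2 (-0.21, adjusted p = 0.0671) or DMSO replicate 3 (-0.22, adjusted p = 0.0678). P4ha1, Eno1 and Ldha were lower at day 2 (-0.27 ± 0.04, -0.13 ± 0.04 and -0.14 ± 0.04) and higher at day 4. The Eno1 call was lost without DMSO day 2 replicate 3 (-0.10, adjusted p = 0.135), BPK25 replicate 2 (-0.13, adjusted p = 0.0520) or BPK25 replicate 3 (-0.13, adjusted p = 0.0558), and the Ldha call without BPK25 day 2 replicate 2 (-0.12, adjusted p = 0.0691). Aldoc was lower at day 0 (-0.59 ± 0.16), a call lost without BPK25 replicate 2 (-0.55, adjusted p = 0.0602), DMSO replicate 1 (-0.60, adjusted p = 0.0517) or DMSO replicate 2 (-0.58, adjusted p = 0.0676).

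Pkm was higher at day 2 by 0.16 ± 0.04. Ldhb was higher at day 0 by 0.18 ± 0.06, but its call survived the omission of just DMSO replicate 3 among the 6 single-library omissions, with adjusted p up to 0.219. At day 6 P4ha2 had 197, 200 and 196 CPM in BPK25 against 252, 248 and 254 CPM in DMSO, lower in every library (-0.35 ± 0.04). Pfkp was higher by 0.23 ± 0.06. Mxi1 was higher by 0.18 ± 0.05, a call lost without BPK25 replicate 2 (0.11, adjusted p = 0.280), DMSO replicate 1 (0.15, adjusted p = 0.206) or DMSO replicate 2 (0.17, adjusted p = 0.0775).

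Set directly against IAA, BPK25 had lower levels of most members on days 0, 2 and 6. It was lower for 28, 26, 18 and 26 of 34 members at days 0, 2, 4 and 6, where 23.1%, 28.4%, 27.1% and 28.8% of all genes were lower, and higher for 3, 5, 11 and 3, where 24.8%, 29.2%, 27.2% and 27.7% were higher. At day 0 Ankrd37 had 0.883, 1.09 and 0.344 CPM in BPK25 against 7.64, 7.80 and 7.27 CPM in IAA (-3.24 ± 0.25), and Egln3 had 3.29, 3.60 and 3.21 CPM in BPK25 against 21.9, 21.9 and 18.9 CPM in IAA (-2.64 ± 0.14). Slc16a3, Eno2 and Ldhb had log2 fold changes of -2.35 ± 0.13, -2.29 ± 0.15 and -1.92 ± 0.05. The BPK25 libraries of all 5 genes lay wholly below those of IAA. Higher in BPK25 that day were P4ha2 (0.75 ± 0.05), Bnip3l (0.41 ± 0.05) and Hif1a (0.29 ± 0.04). At day 2 the order was similar for Egln3 and Eno2 (-2.07 ± 0.13 and -1.98 ± 0.15), while P4ha2, Hk2 and Pfkp were higher in BPK25 by 1.09 ± 0.05, 0.82 ± 0.04 and 0.71 ± 0.05. At day 6 Eno2, Egln3, Slc16a3 and Ldha were lower, with log2 fold changes of -1.58 ± 0.11, -1.55 ± 0.12, -1.46 ± 0.10 and -1.06 ± 0.04, and Bnip3l and P4ha2 were higher by 0.78 ± 0.05 and 0.66 ± 0.05.

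At day 4 the differences between BPK25 and IAA went both ways in most roles. In upper glycolysis 5 of 7 were higher in BPK25 than in IAA and 2 lower, led by Pfkp with 131, 123 and 134 CPM in BPK25 against 59.0, 59.5 and 63.0 CPM in IAA (1.10 ± 0.05), and Aldoc (0.72 ± 0.10). Pfkl had 162, 150 and 152 CPM in BPK25 against 280, 267 and 268 CPM in IAA (-0.81 ± 0.05), so these phosphofructokinase subunits differed in opposite directions with no overlap. In the hypoxia group 7 of 10 were lower in BPK25, with Ankrd37 at -1.14 ± 0.22 and P4ha2 at -0.92 ± 0.05. Slc16a3 and Hk2 were lower, at -0.74 ± 0.09 and -0.71 ± 0.05. Pgk1 (0.03 ± 0.05), Gapdh (0.05 ± 0.05) and Vegfa (-0.03 ± 0.05) were not called. Of the day 4 calls, that of Pfkm (0.14 ± 0.06) was lost under DESeq2 (adjusted p = 0.126), with no low-count filter (adjusted p = 0.302) and in edgeR without BPK25 replicate 1 (0.12, adjusted p = 0.145), BPK25 replicate 3 (0.12, adjusted p = 0.132), IAA replicate 1 (0.14, adjusted p = 0.0718), IAA replicate 2 (0.13, adjusted p = 0.105) or IAA replicate 3 (0.14, adjusted p = 0.0860). That of Pdk1 (-0.18 ± 0.07) stood with overlapping libraries and was lost without BPK25 replicate 3 (-0.12, edgeR's quasi-likelihood test, adjusted p = 0.223), IAA replicate 1 (-0.18, adjusted p = 0.0602) or IAA replicate 3 (-0.12, adjusted p = 0.210). The Pdk1 call was also lost under DESeq2 (adjusted p = 0.0731) and in edgeR with only the 9 libraries of the day (adjusted p = 0.0510). The call of Bnip3 (-0.15 ± 0.06) was lost without BPK25 replicate 2 (-0.099, adjusted p = 0.219), IAA replicate 2 (-0.12, adjusted p = 0.164) or IAA replicate 3 (-0.15, adjusted p = 0.0836). The Bnip3 call was also lost under DESeq2 (adjusted p = 0.120) and in edgeR with only the 9 libraries of the day (adjusted p = 0.0530).

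The DMSO libraries show how the members differed by day without a treatment. The pluripotency sum fell in DMSO over the same days, and its part in these differences was not tested. Against day 0, 3, 19 and 18 of 34 members were called higher at days 2, 4 and 6, where 1.59%, 26% and 33.2% of all genes were, and 3, 9 and 7 were called lower, where 3.85%, 24.4% and 29.5% were. Members called higher made up 55.9% of the 34 at day 4 and 52.9% at day 6. Pfkp had 47.4, 45.5 and 48.1 CPM at day 6 against 150, 143 and 135 CPM at day 0, a log2 fold change of -1.60 ± 0.05. Pdk1 had 23.4, 22.3 and 24.1 CPM at day 6 against 49.2, 52.6 and 57.9 CPM at day 0 (-1.19 ± 0.07). Hk2 had 74.3, 71.5 and 70.5 CPM at day 6 against 145, 149 and 149 CPM at day 0 (-1.03 ± 0.04). In all 3 genes each day 6 library lay below each day 0 library, and Gapdh fell by 0.72 ± 0.05. Slc16a3 had 13.2, 14.2 and 14.8 CPM at day 6 against 4.77, 6.43 and 4.66 CPM at day 0 (1.39 ± 0.15), and Pfkl had 176, 162 and 165 CPM at day 6 against 70.0, 79.4 and 72.9 CPM at day 0 (1.18 ± 0.05). Both rose without overlap, as did Eno2 (1.16 ± 0.17), Ankrd37 (1.19 ± 0.34), P4ha2 (1.08 ± 0.05), Pdk3 (1.00 ± 0.07) and P4ha1 (0.95 ± 0.04). Hif1a had log2 fold changes of 0.04 ± 0.04, 0.03 ± 0.04 and 0.04 ± 0.04 at days 2, 4 and 6 and was not called.

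**Figure D3:**
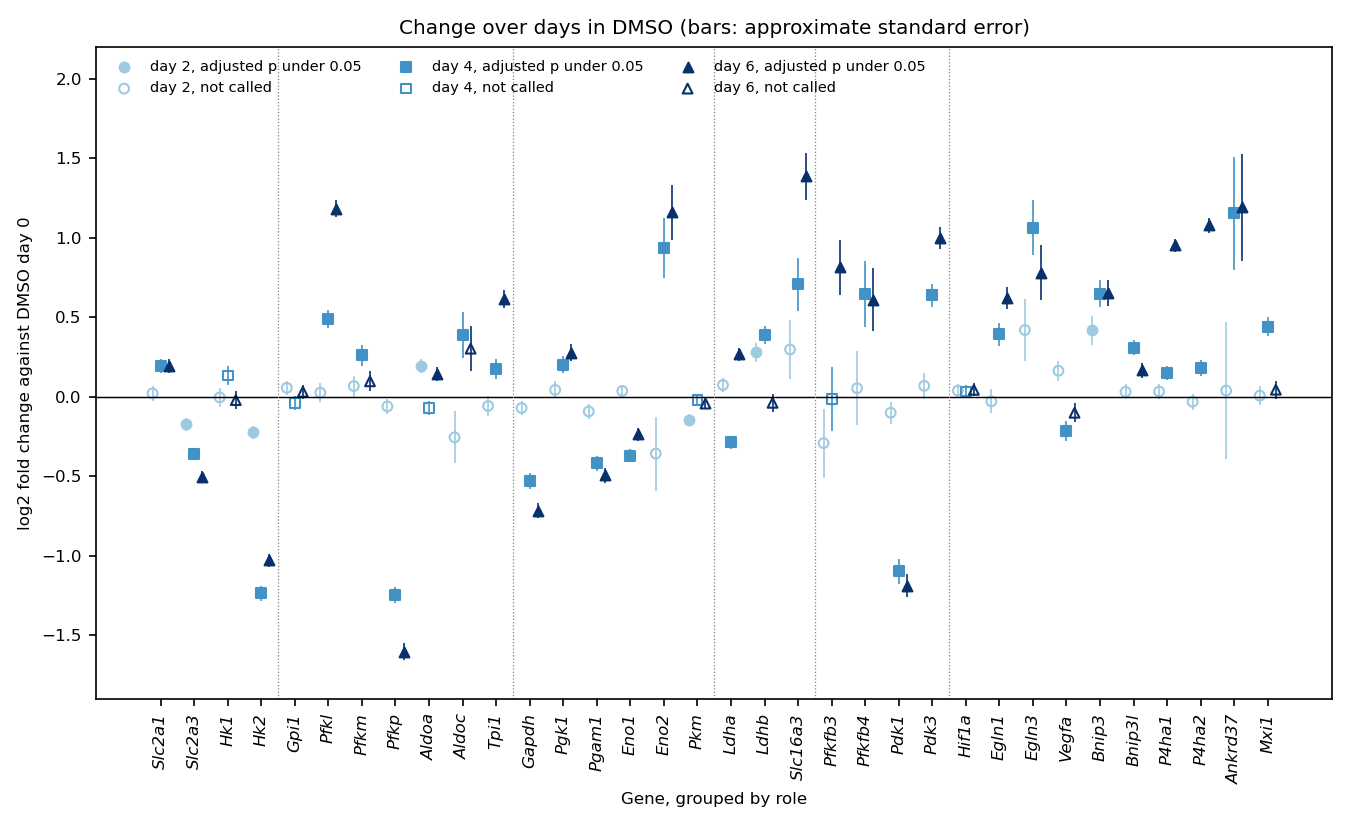
Log2 fold change of each member in DMSO at days 2, 4 and 6 against day 0, with the genes along the horizontal axis and 1 mark for each day, filled where called, bars for the approximate SE and dotted lines between roles. Day 2 values lie between -0.36 and 0.42, and by day 6 Pfkp has fallen by 1.60 while Slc16a3 has a value of 1.39.

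Because some members are isozymes of 1 step, their shares of the summed level per kilobase of exon were followed. Pfkp made up 30.4 ± 1.11%, 28.9 ± 0.559%, 12.5 ± 0.300% and 8.19 ± 0.299% of phosphofructokinase RNA in DMSO at days 0, 2, 4 and 6 (SD, n = 3 each). Pfkl made up 31.7 ± 1.72% at day 0 and 58.7 ± 0.335% at day 6, and Pfkm 37.9 ± 0.612% and 33.1 ± 0.243%. The liver-type subunit Pfkl thus led at day 6, where it also led in CPM, at 168 against 47.3 for Pfkm and 47.0 for Pfkp. At day 0 the order depended on the exon length used, since in CPM Pfkp averaged 143, Pfkl 74.1 and Pfkm 44.3. At day 4 in DMSO the Pfkm share was 44.1 ± 1.31%. At day 4 the Pfkl share was 48.5 ± 0.947% in BPK25 and 69.1 ± 0.584% in IAA, against 43.4 ± 1.02% in DMSO. The Pfkp share that day was 20.2 ± 0.505% in BPK25 and 7.68 ± 0.353% in IAA, against 12.5 ± 0.300% in DMSO.

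Other pairs also changed their make-up. Of hexokinase RNA at day 4, Hk1 made up 55.9 ± 0.571% in BPK25 and 36.3 ± 0.993% in IAA, against 43.8 ± 1.68% in DMSO. Of lactate dehydrogenase RNA, Ldhb made up 47.7 ± 0.510% in IAA at day 0 against 35.3 ± 0.691% in DMSO, but 22.7 ± 0.688% in IAA at day 4 against 46.5 ± 1.26% in DMSO, so the difference reversed between these days. Pdk1 made up 62.7 ± 0.738% of the Pdk1 and Pdk3 sum in IAA at day 0, against 36.7 ± 1.15% in DMSO. P4ha2 made up 18.3 ± 0.591% of the P4ha sum in BPK25 and 25.6 ± 0.891% in IAA at day 4, against 42.9 ± 2.02% in DMSO. Bnip3 made up 48.0 ± 2.63% of the Bnip3 and Bnip3l sum in BPK25 and 48.1 ± 1.55% in IAA at day 4, against 25.3 ± 2.14% in DMSO. These shares rest on the union of annotated exons, which understates a gene with long rare exons, so differences between groups are firmer than the order of genes.

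**Figure D4:**
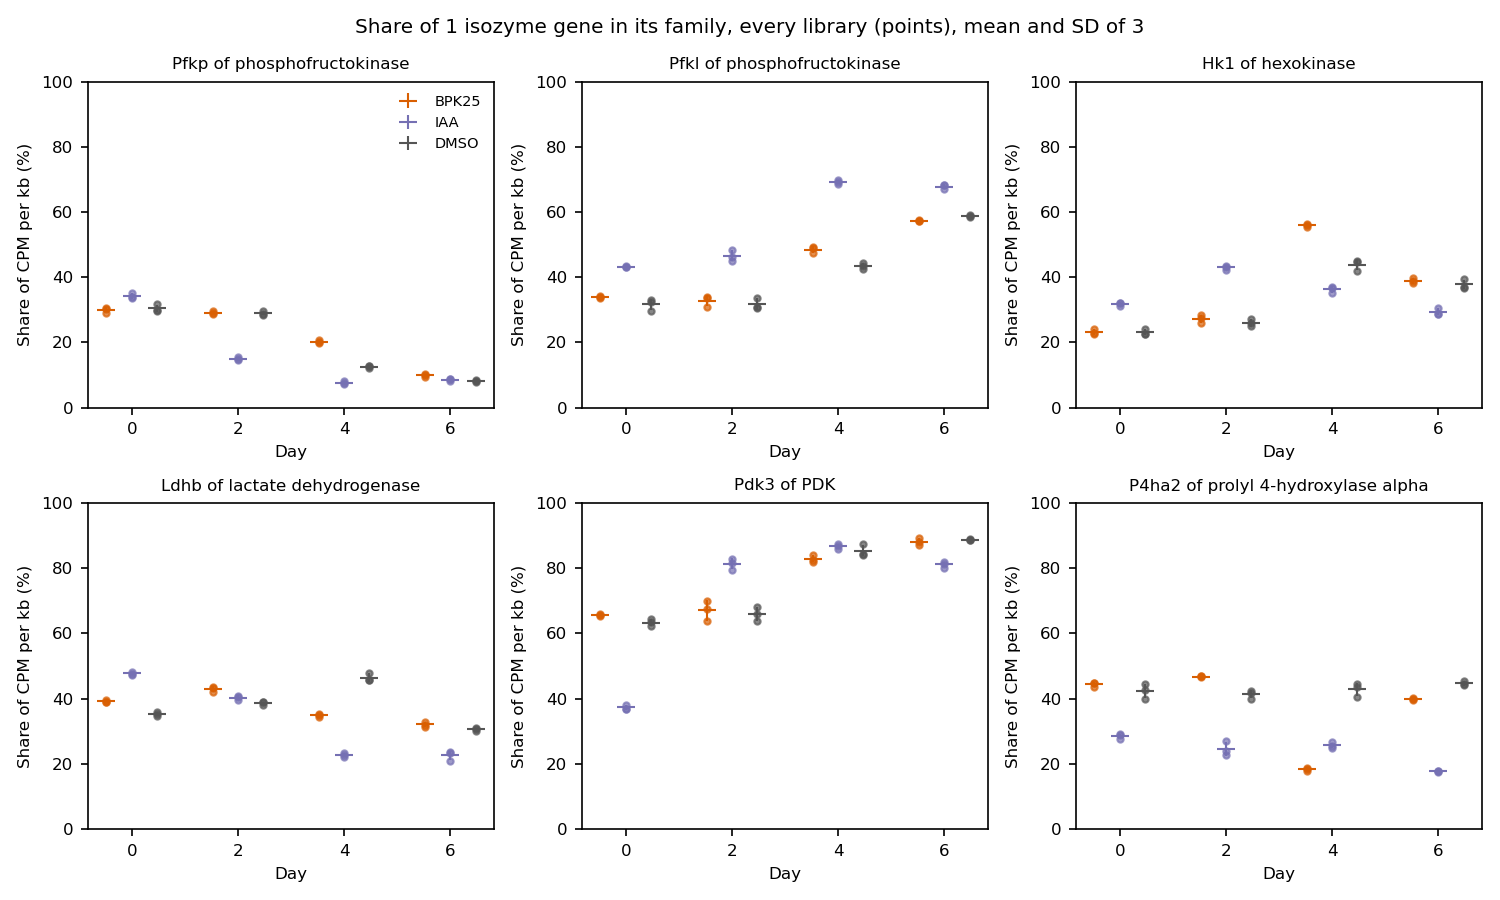
Share in percent of the summed CPM per kb that Pfkp, Pfkl, Hk1, Ldhb, Pdk3 and P4ha2 took within their isozyme families, in each library of BPK25, IAA and DMSO at days 0, 2, 4 and 6. The Pfkp share in DMSO goes through 30.4%, 28.9%, 12.5% and 8.19% over the days, and the P4ha2 share at day 4 is 18.3% in BPK25 and 25.6% in IAA against 42.9% in DMSO.

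Other genes of the same pathways were called in both directions. Of 34 tested genes among 36 others of glucose metabolism, 8, 13, 12 and 16 were called higher in IAA at days 0, 2, 4 and 6, where 21.3%, 27.5%, 25.9% and 30.6% of all genes were, and 9, 13, 7 and 8 lower, where 23.2%, 27.9%, 25.9% and 30% were. In BPK25 1, 4, 10 and 1 were higher, where 3.32%, 6.4%, 26.2% and 4.01% of all genes were, and 1, 2, 7 and 2 lower, where 4.58%, 7.12%, 26.8% and 3.08% were. Of 31 tested among 32 other hypoxia genes, 8, 12, 12 and 13 were higher in IAA and 9, 8, 7 and 12 lower. In BPK25 2, 2, 15 and 0 of these were higher and 3, 6, 7 and 3 lower, against the same shares of all genes. The median log2 fold changes in IAA at days 0, 2, 4 and 6 were 0.014, 0.019, 0.00095 and 0.15 for other glucose metabolism and -0.094, 0.021, 0.12 and -0.028 for other hypoxia genes. In BPK25 they were -0.048, -0.061, 0.032 and -0.040 for other glucose metabolism and -0.047, -0.075, 0.14 and -0.036 for other hypoxia genes.

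Single genes of these lists still changed much. Tkt, transketolase of the pentose phosphate pathway, averaged 544 ± 7.97 CPM in IAA and 323 ± 19.0 CPM in DMSO at day 0 (SD, n = 3 each). Its log2 fold change there was 0.75 ± 0.05 (approximate SE), and it rose by 0.92 ± 0.05 in BPK25 at day 4. Tfrc, the transferrin receptor, rose by 1.42 ± 0.04 in IAA at day 0 and by 1.08 ± 0.05 in BPK25 at day 4. Pdk4, a further pyruvate dehydrogenase kinase, rose by 1.49 ± 0.13 in IAA at day 0. Hif3a, an alpha subunit with inhibitory forms, rose by 1.44 ± 0.24 at day 0 and 2.89 ± 0.20 at day 6 in IAA, and Adm, adrenomedullin, by 2.07 ± 0.14 at day 6. Epas1, which encodes the alpha subunit HIF2α, had 39.3 ± 2.75 CPM in BPK25 and 110 ± 4.82 CPM in DMSO at day 4 (-1.50 ± 0.05), and fell by 0.70 ± 0.04 in IAA at day 6. Hkdc1, a hexokinase-related gene, fell by 1.82 ± 0.06 in BPK25 at day 4 and by 0.88 ± 0.07 in IAA at day 0.

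Some counts could be shared with other loci, since no label states whether counting used strand. Lrp2bp lies opposite 22.7% of the exon bases of Ankrd37 and Gm45507 opposite 22.3% of those of Bnip3, but they held 183 and 149 counts over all libraries against 914 for Ankrd37 and 11548 for Bnip3. Other opposite neighbours held more counts than the member, with Ufsp2 opposite 57 exon bases of Ankrd37 at 18630 counts and Pitrm1 opposite 748 exon bases of Pfkp at 45851 counts against 38478 for Pfkp. Gm49759 overlaps 15.3% of Pkm on the same strand and held 27291 counts against 437833. A near-identical copy of Eno1 held 21.3% as many counts as Eno1, and with it added the log2 fold change of Eno1 in IAA at day 0 was again 1.21. How many reads of these genes came from such neighbours was not tested.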

How the data were processed

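RNA of 36 libraries (3 treatments by 4 days, 3 each, grouped by the labels' titles) was sequenced after a SMARTer mRNA-seq preparation, per the labels' protocols. What the authors deposited is a single table of unnormalized counts of reads for each gene ID, as its header and whole-number values show. The submitters' processing notes list HISAT2 2.1.0, featureCounts 2.0.1, FastQC 0.11.7 and DESeq2, and the build mm10. The strand setting, filters and annotation release are not stated there. No column of another sample and no row without a gene was in the table.

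Everything else was computed from those counts with R 4.3.3 and edgeR 4.0.16. The 12 groups were passed to filterByExpr (minimum total 15, minimum count 10), which left 17394 genes, scaling was by TMM, and all 36 libraries entered 1 fit (glmQLFit, glmQLFTest, two-sided, Benjamini-Hochberg over all genes tested, called at an adjusted p under 0.05). The SE of a log2 fold change is its size over the square root of F. The common biological coefficient of variation was 3.86%. Joint tests asked whether a treatment's effect differed between days. Levels per kb used the union of GENCODE M21 exons, which 98.6% of gene IDs matched. Same-group libraries all differed by more than sampling noise. The procedure was tested on simulated data.

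The members, the role groups, the other lists and the marker lists were chosen with earlier results of these data known. Named with values in each library are, in a comparison, up to 4 members with the highest and up to 4 with the lowest log2 fold change among those called without overlap, and always Slc2a1, Hk2, Pgk1, Ldha, Pdk1, Bnip3, Vegfa, Egln3 and Hif1a; of the other lists, up to 3 called genes in each direction that averaged 5 CPM or more in a compared group. Alternatives were DESeq2 1.42.0, its size factors, other filters, fewer libraries in the fit, a replicate block, copies summed, and each library left out. Promoter sequences were taken from RefSeq (GRCm38.p6).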

Additional observations from a re-analysis of the deposited data

Results flagged for a closer look

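The effect of BPK25 against DMSO differed between days for 30 of the 34 members, where 47.1% of all genes did, and that of IAA for 33, where 70.1% of all genes did, each by a joint test of the differences between days in edgeR's quasi-likelihood framework over all genes.

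For BPK25, 7 members were called in opposite directions on different days, as were 7.37% of all genes. They were picked by these calls in the same data, as were those of IAA below. The joint test asks only whether the effect differed between days, and its p does not test a change of sign. The joint adjusted p was 1.07e-09 for Aldoc (-0.59 at day 0 and 1.00 at day 4 on the log2 scale), 3.31e-23 for Eno1 (-0.13 at day 2 and 1.00 at day 4) and 2.66e-24 for Ldha (-0.14 at day 2 and 1.05 at day 4) in edgeR. It was 4.28e-07 for Pdk1 (-0.31 at day 0 and 0.39 at day 4), 4.29e-13 for Bnip3 (-0.70 at day 2 and 0.54 at day 4) and 1.87e-16 for P4ha1 (-0.27 at day 2 and 0.57 at day 4). For Mxi1 it was 0.000114, with -0.20 at day 4 and 0.18 at day 6. In 6 of the 7 the higher day was day 4. The calls of Aldoc and Bnip3 at day 0, of Eno1, Ldha and Pdk1 at day 2 and of Mxi1 at day 6 were lost without at least 1 library, and Pdk1 and Bnip3 each had a further lower day whose call was kept.

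For IAA, 8 of the 34 members did so, against 21.9% of all genes, a share near the background. The joint adjusted p in edgeR was 3.26e-27 for Hk2 (0.74 at day 0 and -0.84 at day 2), 6.46e-27 for Pfkp (1.07 at day 0 and -0.69 at day 2) and 6.70e-18 for Pdk1 (1.34 at day 0 and -0.18 at day 2). These 3 were higher at day 0 and lower at day 2. The other members Pdk3 (-0.20 at day 0 and 0.99 at day 2, 1.54e-16), Hif1a (-0.30 and 0.18, 2.77e-10) and Pfkfb4 (0.64 at day 2 and -0.50 at day 6, 0.00202), were highest at day 2. Pfkm (0.22 at day 2 and -0.22 at day 4, 5.61e-05) and Mxi1 (0.51 at day 0 and -0.37 at day 4, 3.41e-13) were lower at day 4. The calls of Pdk1 at day 2, Pdk3 at day 0 and Pfkfb4 at day 6 were lost under DESeq2 and without single libraries, and that of Pfkfb4 at day 2 without single libraries.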

How the results depend on the processing

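Of 344 called member differences, 312 kept their call under all their alternatives. Of 4757 alternative values, 4639 kept direction and call, 118 kept direction without the call, and 0 changed direction. The count of members higher in BPK25 than DMSO at day 0 was 2, and it was 1 with no low-count filter, with the replicate block, with only the libraries compared, with only the 9 libraries of the day, and under DESeq2. The count lower in BPK25 at day 2 was 5, and 3 with no low-count filter or only the libraries compared, and the count higher at day 6 was 3, and 1 with no low-count filter. Leaving out each library in turn moved these counts to 1 to 2, 2 to 6 and 1 to 3. The cause was not tested.

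Libraries with the same replicate number correlated between -0.0608 and 0.0470 in their deviations from group means. The levels thus gave no sign of pairing by number, but they cannot show whether such libraries were handled together. With the replicate number as a block, Ldhb in BPK25 at day 0 (adjusted p = 0.0593) and Pdk3 in IAA at day 0 (adjusted p = 0.0537, edgeR) lost their calls. DESeq2's size factors in place of TMM moved the median log2 fold change of all genes most in DMSO day 6 against day 0, by -0.0217. Depth limits Ankrd37 most, whose lowest library in DMSO at day 0 held 2 counts.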
